A study of Mus musculus with 4 samples.

Results

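The 10 genes described here encode surface or secreted ligands that tumour and myeloid cells show to T cells and phagocytes: Cd274, Pdcd1lg2, Cd276, Cd47, Cd80, Cd86, Lgals9, Pvr, Nectin2 and Vsir. They were chosen by symbol, and all 10 were found among the 54532 genes of the deposited table. RNA sequencing had been done on 4 mouse libraries labelled as CD4+ T cells that had infiltrated B16 tumours, which grow from a pigmented melanoma line. The first group of 2 libraries is labelled WT (WT 1, WT 2), and the second group of 2 is labelled Piezo1KO (Piezo1KO 1, Piezo1KO 2). Values of a pair follow that order. The Piezo1 protein forms a channel that lets cations in when the membrane is stretched, and the study asked how it acts on T cells that make interleukin 9. Every library carries the same treatment label, the tumour microenvironment. The labels give no strain, age, deleted allele or Cre driver, and whether each library is a separate animal is not stated. P-values here thus cover library-to-library spread alone, possibly technical.

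T cells receive a first signal through the antigen receptor and further signals through receptors for ligands on the cell they touch. CD80 and CD86 bind CD28, which costimulates, and CTLA-4, which inhibits. PD-L1 (Cd274) and PD-L2 (Pdcd1lg2) engage PD-1 and restrain activated T cells, and interferon gamma from T cells induces PD-L1 on melanoma and myeloid cells. CD47 acts on another axis: it binds SIRPα on macrophages and dendritic cells and inhibits phagocytosis.

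The libraries held 13789266 to 15892797 reads assigned to genes. T cell transcripts were scarce, with 1 and 3 reads of Cd4 in the WT pair and 35 and 9 in the Piezo1KO pair. The 10 melanocyte markers summed, as deposited, to between 6314 and 6910 FPKM (fragments normalised for gene length and depth) in each of the 4 libraries. The T cell label was therefore not matched by T cell markers in either group, and ligand levels below are levels of the whole library. In such bulk RNA, fewer cells of a type and less RNA per cell cannot be told apart. Piezo1 itself stood at 27.8 and 27.6 FPKM in the WT pair and at 18.7 and 7.64 in the Piezo1KO pair, a difference short of the threshold (limma adjusted p = 0.166). Mitochondrial genes took 3.86% and 2.99% of assigned reads in the WT pair, against 20.1% and 48.3% in the Piezo1KO pair. The library size behind the deposited FPKM was 1.26 and 1.28 times the assigned reads in WT, and 0.962 and 0.544 times in the Piezo1KO pair. The scaling therefore bears on every difference between groups, and directions are also given with FPKM rescaled to all assigned reads and to assigned reads outside mitochondrial genes.

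Upstream sequences are shown for 3 ligands: Cd274 and Vsir, which had the largest fold changes among the tested ligands, and Lgals9, the ligand with the highest FPKM. The 250 bases before the RefSeq start of each gene (GRCm38.p6) are printed 5′ to 3′ on the gene's strand, at chr19:29367188-29367437 (plus strand) for Cd274, chr10:60346601-60346850 (plus) for Vsir and chr11:78984925-78985174 (minus) for Lgals9. Capitals mark matches to a searched motif.
Cd274: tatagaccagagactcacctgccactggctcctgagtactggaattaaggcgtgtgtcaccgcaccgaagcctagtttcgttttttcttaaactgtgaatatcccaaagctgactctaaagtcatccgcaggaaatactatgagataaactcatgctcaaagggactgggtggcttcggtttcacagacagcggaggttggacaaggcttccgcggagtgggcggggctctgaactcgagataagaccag
Vsir: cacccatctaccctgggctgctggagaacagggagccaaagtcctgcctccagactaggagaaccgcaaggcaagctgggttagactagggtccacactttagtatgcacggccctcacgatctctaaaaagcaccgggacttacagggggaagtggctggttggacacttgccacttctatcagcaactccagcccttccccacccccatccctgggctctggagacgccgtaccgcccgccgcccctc
Lgals9: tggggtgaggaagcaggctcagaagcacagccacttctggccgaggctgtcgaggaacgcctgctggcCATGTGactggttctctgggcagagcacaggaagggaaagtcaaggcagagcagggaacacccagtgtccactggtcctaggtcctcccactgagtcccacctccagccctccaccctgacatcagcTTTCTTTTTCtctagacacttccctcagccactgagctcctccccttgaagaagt
Windows of 300 bases, from 250 before to 50 after the start, were found for 8 of the 10 ligands (9 windows). Both strands were searched for TTCNNNGAA (the gamma-activated site, which reads the same on both strands), the core of interferon response elements (GAAA and GAAA with 2 bases between, which can overlap itself), GAGGAAGT (a core bound by PU.1) and CATGTG (the M-box bound by MITF). None of these motifs overlapped another in the ligand windows. The interferon response core was found in the Lgals9 window alone, starting 55 bases before the start and again 15 bases after it (the second not printed), while 3.44% of 32851 promoter windows held it. The M-box was found in Lgals9, 182 bases before the start, and in Pdcd1lg2, 229 bases before, and 14.2% of windows held it. The gamma-activated site and the PU.1 core were in none of the ligand windows, and 8.30% and 3.20% of all windows held them. These are matches of letters, not evidence of binding.

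The ligands fell into a high and a low set by FPKM in WT. Lgals9, Cd276, Nectin2, Pvr and Cd47 had between 4.11 and 21.9 FPKM in both WT libraries. Cd274, Vsir, Cd80, Cd86 and Pdcd1lg2 lay between 0 and 1.81. This split was made after the values were seen and is a description. As deposited, the low set was higher in both Piezo1KO libraries than in either WT library for all 5 genes, by 4.02 to 10.9 times in group means, and 21.7% of the 23654 genes with a read were. With FPKM rescaled to all assigned reads this held for 3 of the 5 (Vsir, Cd80 and Cd86), and the 5 group means stood 2.73 to 6.77 times higher. For Pdcd1lg2 the lower Piezo1KO value rests on 2 reads. The high set differed less as deposited, by 0.745 to 1.60 times. Of the 10 ligands, 7 had a mean FPKM of at least 1 and were tested, and 0 of them passed (limma, adjusted p under 0.05). Over all 11085 genes tested, 0.731% passed as higher and 0.370% as lower. At an unadjusted p under 0.05 there were 4 of 7 ligands (Cd274, Vsir, Pvr and Cd47), where 28.6% of all genes tested reached it, and limma-voom on recovered reads also called 0. Among the 7, the groups did not overlap for 5 ligands higher and 1 lower in Piezo1KO. The same was true of 33.9% and 35.6% of all genes tested. The median log2 fold change of the 7 was 0.48, against -0.0059 over all genes tested. Vsir had a WT mean under 1 FPKM and entered the test through its Piezo1KO values, so this median is no support for a direction. Genes on the opposite strand overlap Cd276, Pvr, Nectin2 and Vsir and held at most 19 reads in any library.

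**Figure D1:**
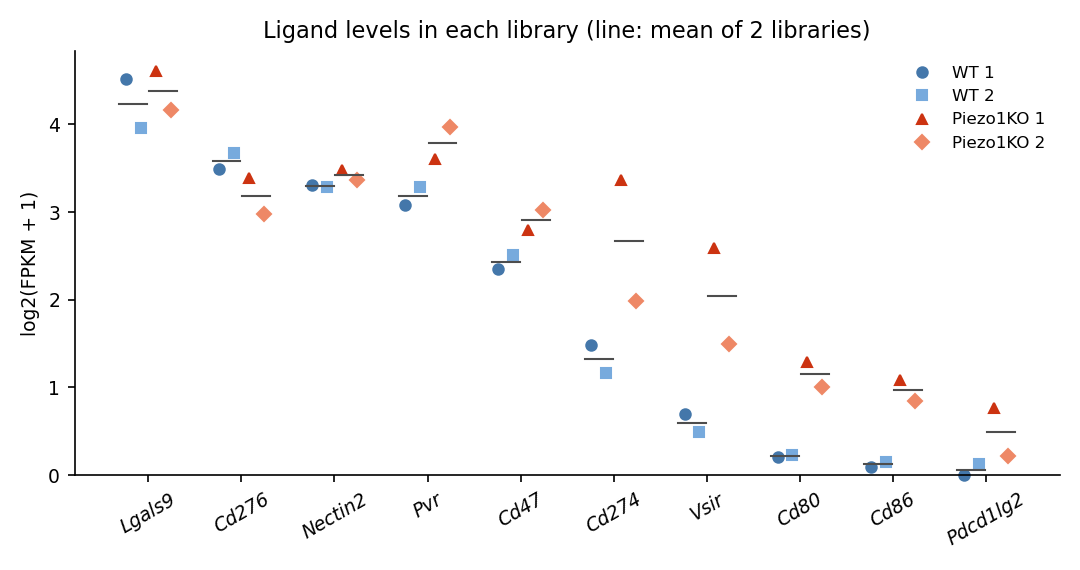
Level of each ligand as log2(FPKM + 1) in each of the 4 libraries, with a line at the mean of each group of 2, ordered by WT mean FPKM. The 5 ligands on the right lie higher as deposited in both Piezo1KO libraries than in both WT libraries, and Lgals9 overlaps between groups.

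Cd274 encodes PD-L1, the main PD-1 ligand of tumours. The gene lies on chromosome 19 from 29367455 to 29388095 (GRCm38, plus strand). Its FPKM was 1.81 and 1.23 in the WT pair, from 129 and 91 reads, and 9.29 and 2.95 in the Piezo1KO pair, from 496 and 80 reads. Piezo1KO 1 stood well above the other 3 libraries, and Piezo1KO 2 stood just above WT 1. Group means were 1.52 ± 0.404 and 6.12 ± 4.48 FPKM (SD, n = 2 each). The log2 fold change was 1.35 with a standard error of 0.49 and a 95% interval of 0.059 to 2.64 (limma adjusted p = 0.166). It was 0.66 without Piezo1KO 1 and 2.04 without Piezo1KO 2, with 1 Piezo1KO library left in each of these fits. With FPKM rescaled to all assigned reads the groups overlapped, since Piezo1KO 2 (1.602 FPKM) lay between WT 2 (1.58) and WT 1 (2.28).

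Pdcd1lg2 encodes PD-L2, the other PD-1 ligand, found mainly on dendritic cells and macrophages. It lies 22823 bases downstream of Cd274 on the same strand, from 29410919 to 29471157. It was the lowest ligand in all 4 libraries, with 0 and 3 reads in the WT pair and 17 and 2 in the Piezo1KO pair. These gave 0, 0.0896, 0.701 and 0.162 FPKM, where 3 reads would give between 0.0896 and 0.243 FPKM. Its mean stayed below the filter. The read rate over both libraries was 11.4 times higher in Piezo1KO, with an exact 95% interval of 3.36 to 60.2 that covers counting error only. Most of those reads came from Piezo1KO 1, and the groups overlapped with FPKM rescaled to all assigned reads.

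Cd80 and Cd86 encode the ligands of CD28 and CTLA-4, carried by activated dendritic cells, macrophages and B cells. They lie on chromosome 16, Cd80 from 38455561 to 38496335 (plus strand) and Cd86 from 36603869 to 36666081 (minus). Cd80 had 0.151 and 0.173 FPKM in the WT pair, from 11 and 13 reads, and 1.45 and 1.01 in the Piezo1KO pair, from 79 and 28 reads. Cd86 had 0.0693 and 0.107 FPKM in the WT pair, from 5 and 8 reads, and 1.13 and 0.802 in the Piezo1KO pair, from 61 and 22 reads. Both genes were higher in each Piezo1KO library than in each WT library on all 3 scales. As deposited this held for 21.7% of the 23654 genes with a read. Of the genes tested, which leave out Cd80 and Cd86, 7.46% were higher rescaled to all assigned reads and 22.6% outside mitochondrial genes. Cd80 and Cd86 both stayed below the filter. The fit without a filter gave Cd80 a log2 fold change of 0.93 (standard error 0.16, limma adjusted p = 0.199). It gave Cd86 0.85 (standard error 0.13, limma adjusted p = 0.189). The added 1 shrinks changes at this level, and read rates over both libraries were 8.03 times (exact 95% interval 5.12 to 13.1) and 11.5 times (6.37 to 22.5) higher in Piezo1KO, counting error only.

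Vsir encodes VISTA, an inhibitory B7-like protein of myeloid cells and naive T cells that acts both as ligand and as receptor. It lies on chromosome 10 from 60346851 to 60372684 (plus strand). Its FPKM was 0.617 and 0.412 in the WT pair, from 61 and 42 reads, and 5.03 and 1.81 in the Piezo1KO pair, from 372 and 68 reads. The order of the libraries was that of Cd274. The log2 fold change was 1.45 with a standard error of 0.40 and a 95% interval of 0.38 to 2.51 (limma adjusted p = 0.139). It was the ligand with the largest log2 fold change of the 7 tested. The added 1 shrinks it, and it was 2.37 with a pseudocount of 0.1 and 2.77 in limma-voom on recovered reads, without passing in either. It passed with FPKM rescaled to all assigned reads, at 1.05 (limma adjusted p = 0.0422). On that scale 2.50% of all genes tested passed as higher and the median of all genes was -0.67. Vsir had a WT mean of 0.514 FPKM and entered the test through its Piezo1KO values. The pass is thus no support for a direction. The log2 fold change of Vsir was 0.89 without Piezo1KO 1 and 2.00 without Piezo1KO 2, with 1 Piezo1KO library left in each fit.

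**Figure D2:**
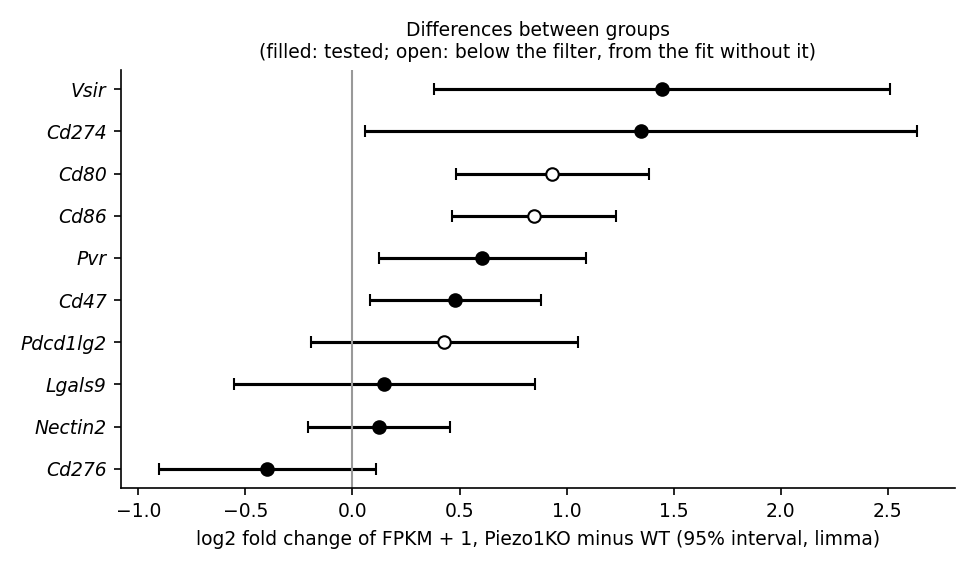
Log2 fold change of FPKM + 1 for each ligand, Piezo1KO minus WT, with limma's 95% interval; filled points are the 7 tested ligands and open points the 3 below the filter, taken from the fit without one. The intervals of Lgals9, Nectin2, Cd276 and Pdcd1lg2 cross 0, and no ligand passed after adjustment over all genes.

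Pvr and Nectin2 encode CD155 and CD112, which bind the activating receptor CD226 and the inhibitory receptor TIGIT on T and NK cells. They lie 153094 bases apart on the minus strand of chromosome 7, Nectin2 from 19716644 to 19750483 and Pvr from 19903578 to 19921160. Pvr had 7.43 and 8.79 FPKM in the WT pair and 11.2 and 14.7 in the Piezo1KO pair, from at least 673 reads in each library. As deposited, and unlike Cd274 and Vsir, its highest level was in Piezo1KO 2, whereas rescaled to all assigned reads it was highest in WT 2 (11.3 FPKM) and lowest in Piezo1KO 2 (7.97). Its log2 fold change was 0.61 with a standard error of 0.18 (limma adjusted p = 0.145), and it was -0.13 with FPKM rescaled to all assigned reads. Without Piezo1KO 1, which leaves 1 Piezo1KO library, it was 0.79 as deposited.

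Nectin2 was the most even of the ligands, with 8.90 and 8.76 FPKM in the WT pair and 10.1 and 9.32 in the Piezo1KO pair. The log2 fold change was 0.13, with a 95% interval of -0.21 to 0.46 (limma adjusted p = 0.505). It turned to -0.60 with FPKM rescaled to all assigned reads and to -0.079 outside mitochondrial genes. Within a library the ratio of Pvr to Nectin2 FPKM does not depend on the scaling, and it was 0.835 and 1.003 in the WT pair and 1.10 and 1.57 in the Piezo1KO pair. The TIGIT and CD226 ligands thus stood in a different proportion in the Piezo1KO libraries, without overlap, a difference for which the smallest possible p of an exact permutation test is 0.333.

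Cd47 encodes the ligand of SIRPα and is expressed on nearly all cells. It lies on chromosome 16 from 49800533 to 49915010 (plus strand). Its FPKM was 4.11 and 4.70 in the WT pair and 5.96 and 7.14 in the Piezo1KO pair. Rescaled to all assigned reads it too was highest in WT 2 (6.02 FPKM) and lowest in Piezo1KO 2 (3.88). The log2 fold change was 0.48 with a standard error of 0.15 (limma adjusted p = 0.149). It was 0.59 without Piezo1KO 1, which leaves 1 Piezo1KO library, and -0.20 with FPKM rescaled to all assigned reads.

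Cd276 encodes B7-H3, a B7 family protein found on many tumours whose receptor on T cells is not settled. It lies on chromosome 9 from 58524298 to 58555437 (minus strand). Its FPKM was 10.2 and 11.7 in the WT pair and 9.49 and 6.86 in the Piezo1KO pair. It was the 1 ligand that was lower in both Piezo1KO libraries than in both WT libraries on all 3 scales. Of all genes tested, 35.6% were lower as deposited, 73.0% rescaled to all assigned reads and 48.3% outside mitochondrial genes. The log2 fold change was -0.40 with a 95% interval of -0.90 to 0.11 (limma adjusted p = 0.232). Without Piezo1KO 1, which leaves 1 Piezo1KO library, it was -0.60. The ratio of Cd274 to Cd276 FPKM, free of the scaling, was 0.177 and 0.105 in the WT pair and 0.978 and 0.430 in the Piezo1KO pair.

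Lgals9 encodes galectin-9, a secreted sugar-binding protein that binds TIM-3 among other receptors. It lies on chromosome 11 from 78962974 to 78984946 (minus strand). It had the highest FPKM of the ligands in every library, with 21.9 and 14.6 in the WT pair and 23.4 and 16.9 in the Piezo1KO pair. The groups overlapped, and the spread within each was larger than the difference between means (18.2 ± 5.18 and 20.2 ± 4.59 FPKM, SD, n = 2 each). The log2 fold change was 0.15, with a 95% interval of -0.55 to 0.85 (limma adjusted p = 0.709), and its sign turned in 5 of 13 alternatives.

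**Figure D3:**
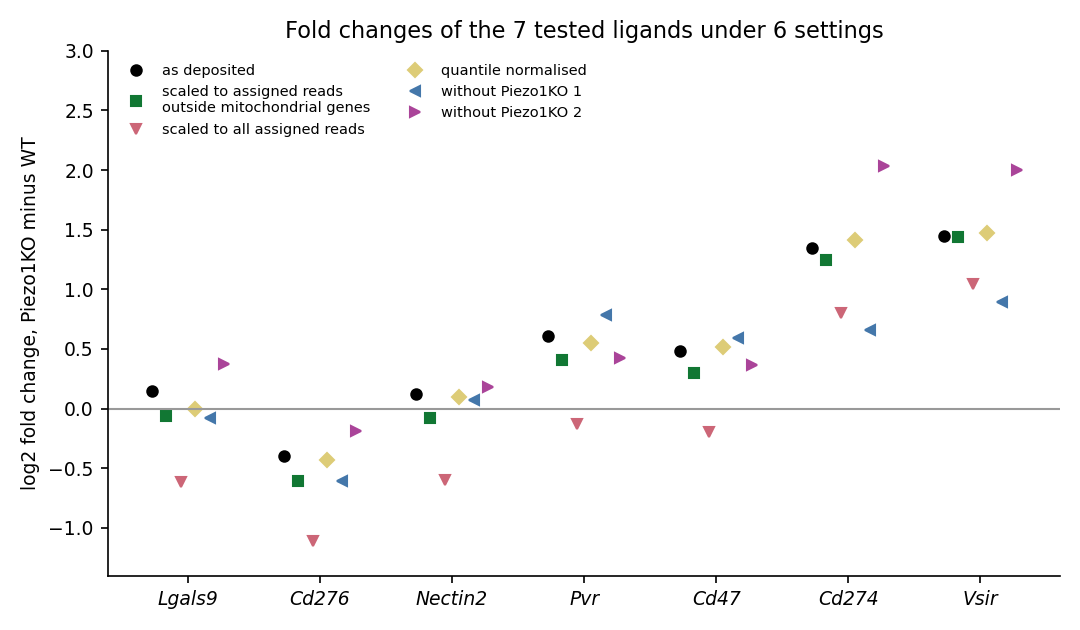
Log2 fold change of each of the 7 tested ligands (Piezo1KO minus WT) with FPKM as deposited, under 3 other scalings and without either Piezo1KO library. Cd274 and Vsir lie above 0 and Cd276 below 0 in all 6, while Pvr, Cd47, Nectin2 and Lgals9 turn negative when scaled to all assigned reads.

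The directions depended on the scaling for 4 of the 7 tested ligands. With FPKM rescaled to all assigned reads the median log2 fold change of all genes moved to -0.67, and outside mitochondrial genes to -0.20. On the former scale Vsir alone of the 7 was higher in both Piezo1KO libraries, where 7.46% of all genes were, and Cd276 and Nectin2 were lower, where 73.0% were. Pvr (-0.13) and Cd47 (-0.20) lay above the median of all genes there, and Cd276 (-1.11) lay below it. Leaving out Piezo1KO 1 gave 4 ligands higher and 1 lower, where 27.5% and 25.4% of all genes passed. Leaving out Piezo1KO 2 gave 2 higher and 0 lower, where 9.71% and 4.54% of all genes passed, and leaving out either WT library gave 0.

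As shares of the summed FPKM of the 10 ligands, which no library scaling changes, Lgals9 took 39.6% and 28.8% in the WT pair and 30.1% and 27.5% in the Piezo1KO pair. Cd276 took 18.5% and 23.2% in the WT pair but 12.2% and 11.1% in the Piezo1KO pair. Its rank among the ligands was 2 in both WT libraries and 4 and 5 in the Piezo1KO pair, while Pvr ranked 4 and 3 in the WT pair and 2 in both Piezo1KO libraries. Nectin2, Pvr and Cd276 lay close together in WT, and the WT ranges of Pvr and Nectin2 overlapped. Together, Cd274, Vsir, Cd80, Cd86 and Pdcd1lg2 took 4.79% and 3.99% in the WT pair and 22.6% and 10.9% in the Piezo1KO pair. Cd274 alone went from 3.27% and 2.44% in the WT pair to 11.9% and 4.78% in the Piezo1KO pair. The last places had the same order in all 4 libraries: Vsir 7, Cd80 8, Cd86 9 and Pdcd1lg2 10.

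**Figure D4:**
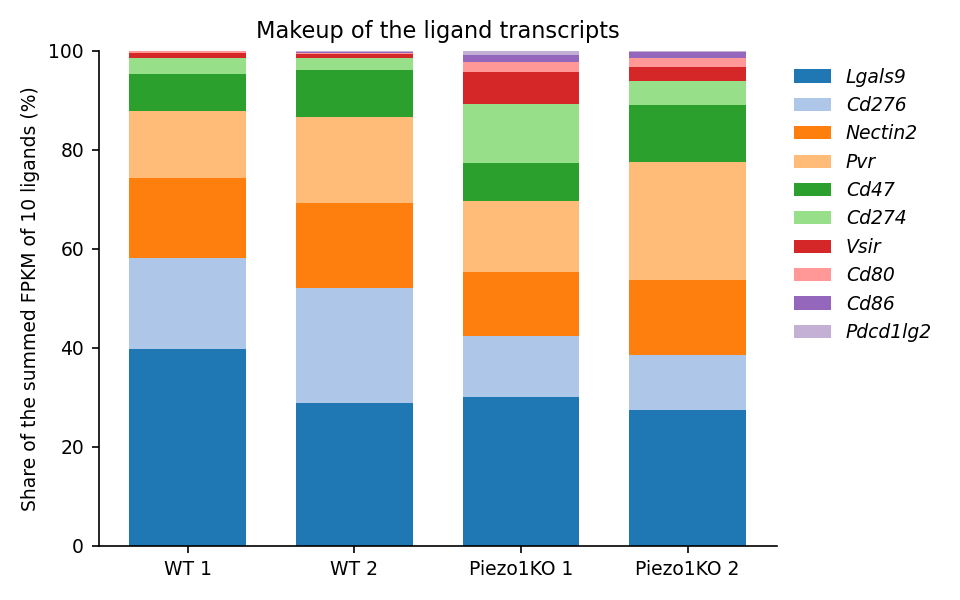
Share of each ligand in the summed FPKM of the 10 ligands, as stacked bars for the 4 libraries, in percent. Cd274, Vsir, Cd80, Cd86 and Pdcd1lg2 together make up 4.79% and 3.99% in the WT pair and 22.6% and 10.9% in the Piezo1KO pair.

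Myeloid markers moved with the low set. Of 15 macrophage and monocyte markers 13 were tested and 5 rose (C1qa, C1qb, Cd14, Tyrobp and Fcer1g), but 0 passed without a filter or when WT 1 or WT 2 was left out. As deposited 12 of the 13 tested were higher in both Piezo1KO libraries, where 33.9% of all genes tested were. Fcgr1 and Itgam entered the test through Piezo1KO. Of all 15 markers 14 were higher, where 21.7% of the 23654 genes with a read were. Rescaled to all assigned reads, Cd68, Adgre1, C1qc, Mrc1, Ms4a7 and Ptprc overlapped between groups. The others stayed higher, where 7.46% of all genes tested were. The summed FPKM of the 15 as deposited was 109 and 80.3 in the WT pair and 569 and 396 in the Piezo1KO pair. None of the 15 was at 0 reads in any library. The 7 neutrophil markers summed to 0.756 and 1.39 FPKM in WT and to 144 and 48.4 in the Piezo1KO pair, while Ly6g had 0 reads throughout. The 4 tested had WT means under 1 FPKM and entered the test through Piezo1KO, so their calls support no direction. For 11 dendritic cell markers (5 tested, 0 passed) the sums were 5.22 and 6.23 FPKM in WT and 21.8 and 12.1 in the Piezo1KO pair. The WT sums rest mainly on Fscn1, with 3.23 and 3.43 FPKM in WT and 5.18 and 3.85 in the Piezo1KO pair. Single dendritic markers with WT reads differed from 0.827 times (Zbtb46) to 12.0 times (Ccl22) between group means. Clec9a had 0 reads in 3 libraries, and 4 of the 5 tested entered the test through Piezo1KO. The 10 T cell markers (3 tested, 0 passed) summed to 1.48 and 1.43 FPKM in WT and to 12.8 and 6.76 in the Piezo1KO pair. Of the 3 tested, 2 (Trac and Trbc2) entered the test through Piezo1KO. As deposited 7 of the 10 were higher, where 21.7% of the 23654 genes with a read were, and 3 overlapped. Cd8a had 0 reads in both WT libraries, and Cd3e and Cd5 had 0 reads in Piezo1KO 2. All 4 sums were highest in Piezo1KO 1, the library with the highest Cd274, Vsir, Cd80, Cd86 and Pdcd1lg2. Rescaled to all assigned reads, the dendritic sums overlapped, at 6.58 and 7.97 in WT and 21.0 and 6.59 in the Piezo1KO pair. The macrophage, neutrophil and T cell sums stayed higher in both Piezo1KO libraries.

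Set against the macrophage and monocyte sum of the same library, Cd274 was 1.66% and 1.54% in the WT pair and 1.63% and 0.745% in the Piezo1KO pair. Vsir was 0.566% and 0.513% in the WT pair and 0.884% and 0.457% in the Piezo1KO pair. Relative to this sum neither gene was higher in both Piezo1KO libraries. Cd80 (0.138% and 0.215% in WT, 0.254% and 0.255% in Piezo1KO) and Cd86 (0.0635% and 0.134% in WT, 0.198% and 0.203% in Piezo1KO) remained higher in both. Their WT values rest on 11 and 13 reads of Cd80 and 5 and 8 reads of Cd86, so their counting error is large. Pdcd1lg2 overlapped, at 0% and 0.112% in WT and 0.123% and 0.0410% in Piezo1KO. The sum rests mainly on its most abundant genes, and single markers differed from 1.51 times (Adgre1) to 21.9 times (Cd14) between group means, so other markers give other ratios. Against Ptprc, the leukocyte surface phosphatase CD45, Cd274 was 7.58 and 9.79 times as high in the WT pair and 6.56 and 7.35 times in the Piezo1KO pair. Measured against this gene, Cd274 was lower in both Piezo1KO libraries. Piezo1KO 2 lay just below WT 1, however, and its ratio rests on 80 Cd274 and 55 Ptprc reads. Against Csf1r, a macrophage receptor, Cd274 overlapped between groups, at 1.20 and 0.864 in the WT pair and 0.946 and 0.765 in the Piezo1KO pair. Vsir was 2.59 and 3.26 times as high as Ptprc in the WT pair and 3.56 and 4.52 times in the Piezo1KO pair. Against Csf1r it was 0.410 and 0.288 in the WT pair and 0.513 and 0.470 in the Piezo1KO pair. Measured against either of these single genes, unlike the sum, Vsir was higher in both Piezo1KO libraries. The WT 2 ratio to Ptprc rests on 42 Vsir and 47 Ptprc reads.

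The melanocyte marker sum in Piezo1KO was 1.09 times that in WT between group means as deposited, but 0.644 times with FPKM rescaled to all assigned reads. Ratios to this sum do not depend on the scaling. Pvr was 0.118% and 0.138% of that sum in the WT pair and 0.162% and 0.214% in the Piezo1KO pair. Cd47 was 0.0651% and 0.0740% in the WT pair and 0.0863% and 0.104% in the Piezo1KO pair. Cd276 was 0.162% and 0.184% in the WT pair and 0.137% and 0.1001% in the Piezo1KO pair, below both WT libraries. Nectin2 stayed between 0.136% and 0.147% in all 4 libraries. The single markers differed from 0.697 times (Slc24a5) to 1.91 times (Mlana) between group means as deposited, and the direction depended on the marker. Pvr and Cd47 were each higher in both Piezo1KO libraries against 9 of the 10 markers and lower against 1 (Mlana). Cd276 was lower against 6 and overlapped against 4 (Tyr, Mitf, Slc45a2 and Slc24a5). Of the erythroid markers 5 of 5 rose, but 0 passed without a filter or when WT 1 or WT 2 was left out. They summed as deposited to 389 and 244 FPKM in the WT pair and to 5124 and 8472 in the Piezo1KO pair. None of the tested B cell, NK cell, endothelial and fibroblast markers (1, 1, 2 and 3 genes) passed. The part of these cell types in the ligand levels was not tested.

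**Figure D5:**
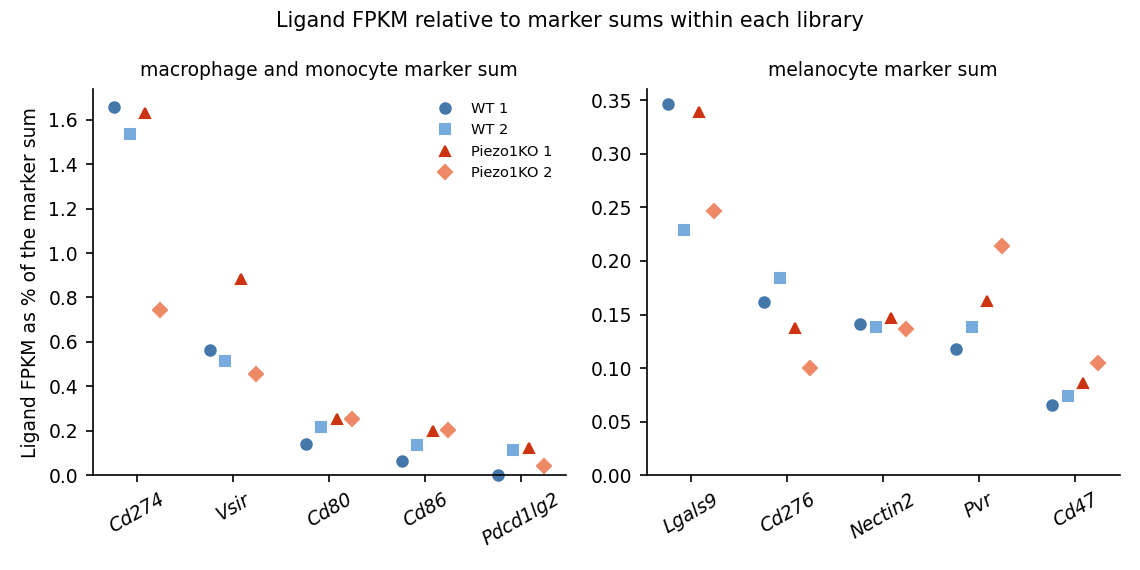
Ligand FPKM as a percentage of the summed FPKM of 15 macrophage and monocyte markers (left, the 5 ligands low in WT) or of 10 melanocyte markers (right, the other 5), one point per library. Cd274, Vsir and Pdcd1lg2 overlap between groups on the left. Pvr, Cd47 and Cd276 do not overlap on the right, where the marker sum stands for 10 genes that did not all move alike.

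For 6 of the 7 tested ligands, the most similar profile is given, among 73 tested partner and marker genes, as the root mean square difference of centred log2(FPKM + 1) values over the 4 libraries. Cd274 and Vsir were both nearest to Nkg7, a granule protein of killer lymphocytes, at 0.10 and 0.060, and Vsir next to Csf1r, the macrophage growth factor receptor, at 0.078. Nkg7 rested on few reads, 3 and 1 in the WT pair and 43 and 6 in the Piezo1KO pair, and entered the test through Piezo1KO. The added 1 shrinks its profile: its group means differed 18.5 times, against 4.02 times for Cd274 and 6.65 times for Vsir. Nectin2 was nearest to Pmel, a melanosome matrix protein, at 0.041, Cd276 to Slc24a5, a melanosome ion exchanger, at 0.099, and Cd47 to Dct, a melanin synthesis enzyme, at 0.11. Lgals9 was nearest to the endothelial cadherin Cdh5 at 0.14. With 4 libraries many genes share such a profile, and these are descriptions.

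The binding partners of the ligands were mostly below the filter. Of 13 partners 4 were tested, 1 passed as higher (Selplg) and 0 as lower, with a median log2 fold change of -0.20 over members in both directions. Selplg, which encodes PSGL-1, a leukocyte adhesion protein that binds VISTA, had 0.522 and 0.391 FPKM in the WT pair and 4.52 and 3.28 in the Piezo1KO pair (log2 fold change 1.74, standard error 0.20, limma adjusted p = 0.0495). Its WT mean was under 1 FPKM and it entered the test through Piezo1KO, so the call is no support for a direction. It no longer passed with FPKM rescaled to reads outside mitochondrial genes, without a filter, or when WT 1 or WT 2 was left out. Sirpa, the receptor of CD47, had 32.3 and 34.0 FPKM in the WT pair and 35.5 and 34.3 in the Piezo1KO pair (log2 fold change 0.071, limma adjusted p = 0.726), the highest partner in every library. Igsf11, a further VISTA partner, and Rgmb, a partner of PD-L2, had log2 fold changes of -0.47 and -0.46 (limma adjusted p = 0.140 and 0.144). Igsf11 and Rgmb were lower in both Piezo1KO libraries on all 3 scales. The shares of all genes tested were 35.6% as deposited, 73.0% rescaled to all assigned reads and 48.3% outside mitochondrial genes.

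The T cell receptors for these ligands rested on few reads. Pdcd1, which encodes PD-1, had 1 read in each WT library and 28 and 5 reads in the Piezo1KO pair. Ctla4 had 2 and 9 reads in the WT pair and 78 and 22 in the Piezo1KO pair. Havcr2, which encodes TIM-3 and is also made by myeloid cells, had 29 and 25 reads in the WT pair and 55 and 15 in the Piezo1KO pair. Tigit had 20 reads in Piezo1KO 1 and 0 in the other 3 libraries, where 3 reads mark the level that a count of 0 allows, and Pvrig had 0 in all 4. Cd28 had 11 and 14 reads in the WT pair and 35 and 1 in the Piezo1KO pair. Levels of most T cell partners were thus highest in Piezo1KO 1, and none of those named in these sentences passed the filter.

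Of 20 other ligands of checkpoint and costimulatory receptors, 10 were tested, 1 rose and 0 fell, with a median log2 fold change of 0.73. Cd48 and Cd24a entered the test through Piezo1KO and 1 gene through WT, so this median is no support for a direction. Lgals3, which encodes galectin-3, a ligand of LAG-3 that macrophages and tumour cells make, rose from 72.4 and 65.4 FPKM in the WT pair to 210 and 258 in the Piezo1KO pair (log2 fold change 1.74, standard error 0.20, limma adjusted p = 0.0479). H2-T23, the nonclassical class I molecule that binds NKG2A, stood 1.63 higher on the log2 scale (limma adjusted p = 0.0641). Cd24a, a further inhibitor of phagocytosis, had 2.13 and Thbs1, a secreted ligand of CD47, had 1.95 (limma adjusted p = 0.0862 and 0.101). These 4 are named because they had the smallest p of the 10 tested, and they were higher in both Piezo1KO libraries on all 3 scales. That choice favours genes that differ, so the shares of all genes are a background and no test of the 4. The shares of all genes tested were 33.9% as deposited, 7.46% rescaled to all assigned reads and 22.6% outside mitochondrial genes. Lgals3 did not pass without a filter or when WT 1 or WT 2 was left out. Vtcn1, a B7 family ligand, had 0 reads in all 4 libraries.

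The interferon gamma pathway and genes that handle PD-L1 or CD47 showed no call. Of 13 genes 12 were tested and 0 passed, with 1 at an unadjusted p under 0.05 and 0 in limma-voom. Irf1, the factor through which interferon gamma induces PD-L1, had 1.70 and 1.25 FPKM in the WT pair and 6.16 and 2.18 in the Piezo1KO pair (log2 fold change 0.95, limma adjusted p = 0.206). Its libraries fell in the same order as those of Cd274. Ifngr2 and Jak2, a receptor chain and a kinase of the pathway, had log2 fold changes of 0.27 and -0.29 (limma adjusted p = 0.225 and 0.241). Irf1 overlapped between groups with FPKM rescaled to all assigned reads. On that scale Ifngr2 and Jak2 were lower in both Piezo1KO libraries, where 73.0% of all genes tested were. Ifngr2 stood there at 18.0 and 17.9 FPKM in the WT pair and 16.1 and 9.59 in the Piezo1KO pair. Outside mitochondrial genes Ifngr2 overlapped, so its direction depended on the scaling.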

How the data were processed

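RNA sequencing values of 4 libraries (2 WT, 2 Piezo1KO) were used, grouped and numbered by the titles. The deposited columns behind WT 1 and WT 2 carry the numbers 2 and 3, and those behind the Piezo1KO pair carry 1 and 2. The authors deposited 1 FPKM value per gene and library. Per the submitters' processing notes, the tools were fastp 0.19.7 and featureCounts 1.5.0-p3, and the build was mm10 (GRCm38). Not given in the sources used here are the aligner, the annotation release, the strand setting and the library size of the FPKM. Total RNA from a column kit went into a SMARTer mRNA library kit, per the labels' protocols. Multiplying FPKM by gene length recovered whole reads for 100% of nonzero values (tolerance 0.05 reads), and their sums are the assigned totals. Libraries of a group differed beyond counting noise, with a chi-square of 8.17 (WT) and 268 (Piezo1KO) per degree of freedom.

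The test was limma 3.58.1 (R 4.3.3) on log2(FPKM + 1), with an intensity trend and 2 residual and 2.59 prior degrees of freedom, over the 11085 genes whose mean FPKM reached 1. P-values were two-sided and Benjamini-Hochberg adjusted over all of them, and called under 0.05. The added 1 shrinks the fold changes of low genes. The smallest p of an exact permutation test here is 0.333. The fit was tested on simulated reads. Members, lists and tests were chosen with earlier results of these data known. All ligands and Piezo1 are named, with every tested gene of a partner list, or the 4 with the smallest p where more than 6 were tested, and partners with few or 0 reads. Results of 1 such gene are not reported here. Alternatives were no filter, a filter at a mean FPKM of 5, a pseudocount of 0.1, no trend, 3 other scalings, limma-voom with TMM factors on recovered reads, a replicate block and leaving out each library. Read intervals are exact 95% intervals of counting error, and PCR copies make them too narrow. Promoter windows are from RefSeq (GRCm38.p6).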

Additional observations from a re-analysis of the deposited data

How the results depend on the processing

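Of 89 log2 fold changes of the 7 tested ligands under alternatives, 72 kept their direction and side of the threshold, 8 kept the direction and newly passed, and 9 turned. With FPKM scaled to all assigned reads Cd47, Lgals9, Nectin2 and Pvr turned to -0.20, -0.61, -0.60 and -0.13, and outside mitochondrial genes Lgals9 and Nectin2 turned to -0.065 and -0.079. Lgals9 also turned to -0.0059 after quantile normalisation, to -0.074 without Piezo1KO 1 and to -0.13 without WT 2, within -0.13 to 0.43 over the 4 libraries left out. The number of ligands called higher was 1 with scaling to all assigned reads, and 0 to 4 when 1 library was left out. The number called lower was 0 to 1 when 1 library was left out. The cause of these changes was not tested. A fit without 1 library has a lone sample in 1 group, assumed to vary like the other group.

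Over all genes, 122 were called. The count was 1707 with scaling to all assigned reads, 68 at a mean FPKM of at least 5, 1 without a filter (4156 at an unadjusted p under 0.05), 192 after quantile normalisation, and 0 to 5859 when 1 library was left out. It was 264 (192 higher, 72 lower) with a replicate block. The block uses the titles' numbers, which were not shown to pair the samples: deviations of same-numbered libraries correlated at -0.033, and no ligand passed with it. By the column numbers the groups share 1 number only, so no block could be made from those. Calls higher and lower were 81 and 41 with the values as deposited, 277 and 1430 scaled to all assigned reads, 77 and 60 outside mitochondrial genes, and 73 and 10 in limma-voom. Among binding partners the count of 1 was 0 without a filter, at a mean FPKM of at least 5 and when scaled to non-mitochondrial reads, and 0 to 3 when 1 library was left out. Among other ligands the count of 1 was 2 with scaling to all assigned reads, 2 after quantile normalisation, 4 with the replicate block, 0 without a filter, and 0 to 6 when 1 library was left out. In the interferon gamma list it was 0 to 2 when 1 library was left out. Depth limits Pdcd1lg2, Cd80, Cd86 and the T cell receptors, which had at most 79 reads in any library.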
